A study of Caenorhabditis elegans with 2 samples.

Results

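The microRNA genes of Caenorhabditis elegans were examined for peaks of SNU-23, which belongs to the tri-snRNP, the particle that brings most of the small nuclear RNAs into the spliceosome. All 261 genes that Ensembl annotates with the biotype miRNA on the assembly WBcel235 were taken, out of 46890 annotated genes. Genes counted as marked if the final list of the authors had a summit no more than 500 bp from the annotated 5' end. The genes were split by position alone. There were 133 intergenic genes, which lay outside coding genes and over 500 bp from any coding 5' end. The other 128 were linked to a coding gene: 76 lay inside one on the same strand, 33 inside one on the opposite strand, and 19 outside but within 500 bp of a coding 5' end. Of the 109 inside a coding gene, 99 lay within an intron and 10 touched an exon.

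Peak lists from ChIP-seq, the sequencing of DNA that is cross-linked to and precipitated with a protein, were deposited for 1 group of 2 biological replicates, so there is no second condition to compare. Whole hermaphrodite L1 larvae of strain OP528 were collected 6 hours after synchronisation, at the stage labelled as starved after bleaching. Sonicated chromatin was pulled down with anti-GFP antibody. The strain carries the transgene wgIs528, a fosmid in which snu-23 is fused at the C terminus to TY1, EGFP and 3xFLAG tags, with unc-119(+) as the marker that rescues the allele unc-119 (tm4063). The lists give a peak signal relative to a control, in the authors' own unit, but no read numbers, so depth is unknown. There are 30000 candidates from each replicate, 30000 from both replicates pooled, and 6675 final peaks, which are the strongest of the pooled list. Replicate spread is shown by repeating each count on the strongest 6675 candidates of each replicate alone. Signals ran from 71.7 to 2804 in the final list. Whole animals were used, so a peak present in few cells cannot be told apart from a weaker one present in many.

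MicroRNAs are cut from primary transcripts made by RNA polymerase II. The nuclear enzyme Drosha releases a hairpin, Dicer cuts it to a short duplex, and an Argonaute protein keeps one strand, which pairs with target messages mainly through its seed, bases 2 to 8. Hairpins may have a transcript of their own, share one with neighbouring hairpins, or lie in the intron of a coding gene and be made from its transcript. The annotated 5' end of a microRNA gene is in most cases that of the hairpin and not a transcription start. Distances below are therefore distances to the hairpin.

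Mature sequences are shown for families whose members differed in their peaks although their seeds match or nearly match. They are also shown for a cluster with unrelated seeds and for mir-45. All were read from the RefSeq annotation and genome of WBcel235 (ce11), 5' to 3', written as DNA, with the seed in capitals. The first set is the mir-51 family, an essential family of the embryo, in which mir-52, mir-53, mir-54 and mir-55 were marked and mir-51 and mir-56 were not.
mir-51, chrIV:11026074-11026096, minus strand: tACCCGTAgctcctatccatgtt
mir-52, chrIV:14034024-14034047, plus strand: cACCCGTAcatatgtttccgtgct
mir-53, chrIV:11027653-11027676, minus strand: cACCCGTAcatttgtttccgtgct
mir-54, chrX:13145011-13145034, minus strand: tACCCGTAatcttcataatccgag
mir-55, chrX:13144842-13144864, minus strand: tACCCGTAtaagtttctgctgag
mir-56, chrX:13144706-13144727, minus strand: tACCCGTAatgtttccgctgag
In the family related to the fly microRNA bantam, mir-58a and mir-80 were marked, while mir-58b, mir-81 and mir-82 were not, nor were mir-58c and mir-2209a, which carry the seed of mir-80. The seed of mir-58a differed from that of mir-80 by A8G, with positions counted from 1 at the 5' end of the mature sequence and the base of mir-80 given before that of mir-58a.
mir-58a, chrIV:3233314-3233335, plus strand: tGAGATCGttcagtacggcaat
mir-80, chrIII:8865285-8865307, minus strand: tGAGATCAttagttgaaagccga
mir-58b, chrIV:6660461-6660483, minus strand: aGAGATCAaccattgagatccaa
mir-58c, chrIV:6660643-6660665, minus strand: aGAGATCAggcaataggttcaaa
mir-81, chrX:2431138-2431159, plus strand: tGAGATCAtcgtgaaagctagt
mir-82, chrX:2435273-2435294, minus strand: tGAGATCAtcgtgaaagccagt
mir-2209a, chrIV:1027143-1027164, plus strand: aGAGATCAgcggttacactaca
The hairpins mir-42, mir-43 and mir-44 lie in a row downstream of a single final summit and carry 3 unrelated seeds. The mature sequence of mir-44 is also that of mir-45, which had a separate peak.
mir-42, chrII:11889870-11889891, plus strand: tCACCGGGttaacatctacaga
mir-43, chrII:11889970-11889992, plus strand: tATCACAGtttacttgctgtcgc
mir-44, chrII:11890083-11890103, plus strand: tGACTAGAgacacattcagct
mir-45, chrII:11880959-11880979, minus strand: tGACTAGAgacacattcagct

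The strongest summits lay outside these hairpins. Windows of 151 bases centred on the pooled summit are shown for 7 peaks on ce11, in the direction of the microRNA gene's transcription. They were chosen because each is the strongest summit of a well-studied gene or cluster. Capitals mark GGGCGG (the core of a GC box), GAGAGA (a GA repeat) and TATAAA (the core of a TATA box), on either strand, so that the reverse complement of each is marked too.
mir-53, chrIV:11027753-11027903, minus strand: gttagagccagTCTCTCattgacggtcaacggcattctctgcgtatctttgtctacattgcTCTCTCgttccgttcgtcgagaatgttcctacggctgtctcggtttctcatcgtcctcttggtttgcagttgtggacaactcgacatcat
mir-54, chrX:13145285-13145435, minus strand: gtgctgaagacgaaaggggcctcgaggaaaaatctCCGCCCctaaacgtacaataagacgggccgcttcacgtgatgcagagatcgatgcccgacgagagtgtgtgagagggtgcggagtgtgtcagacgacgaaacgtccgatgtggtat
mir-80, chrIII:8865557-8865707, minus strand: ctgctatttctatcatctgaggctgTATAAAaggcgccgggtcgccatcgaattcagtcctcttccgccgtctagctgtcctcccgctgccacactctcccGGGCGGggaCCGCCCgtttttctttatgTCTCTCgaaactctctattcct
mir-52, chrIV:14033818-14033968, plus strand: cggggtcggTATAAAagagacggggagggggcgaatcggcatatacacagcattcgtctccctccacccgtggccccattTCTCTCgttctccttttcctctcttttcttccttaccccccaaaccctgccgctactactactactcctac
mir-58a, chrIV:3232834-3232984, plus strand: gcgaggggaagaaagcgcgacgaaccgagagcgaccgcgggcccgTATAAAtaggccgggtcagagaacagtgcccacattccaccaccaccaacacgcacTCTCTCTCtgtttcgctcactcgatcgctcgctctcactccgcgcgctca
mir-229, chrIII:2172047-2172197, plus strand: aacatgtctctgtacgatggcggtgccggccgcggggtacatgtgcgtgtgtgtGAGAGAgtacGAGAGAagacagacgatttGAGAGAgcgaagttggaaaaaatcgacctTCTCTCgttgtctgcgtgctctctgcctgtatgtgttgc
mir-42, chrII:11889477-11889627, plus strand: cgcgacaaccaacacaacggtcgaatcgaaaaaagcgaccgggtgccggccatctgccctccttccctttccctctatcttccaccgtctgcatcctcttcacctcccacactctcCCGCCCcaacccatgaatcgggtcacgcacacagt
The windows of mir-80, mir-52 and mir-58a each held TATAAA, and those of mir-80, mir-54 and mir-42 held GGGCGG in one direction or the other. GAGAGA or its complement was in the windows of mir-53, mir-80, mir-52, mir-58a and mir-229. These are matches of letters and not known sites. The 7 peaks were picked, and the shares over all 45 distinct strongest peaks of microRNA genes are given below.

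A final summit marked 49 of the 261 microRNA genes (18.8%, exact 95% Clopper-Pearson interval 14.2 to 24.0). The share of all 46890 genes marked in the same way was 12.3%. That background holds the 21U-RNA genes, the many small genes of piRNAs, which were rarely marked. Without them it was 17.1%, and among 19973 protein-coding genes it was 16.8%. The interval for microRNA genes covers both of these values, so their share was close to that of coding genes. In replicate 1 alone 51 microRNA genes were marked (19.5%), against 12.5% of all genes. In replicate 2 alone it was 49 (18.8%), against 12.4%. Both of these backgrounds hold the 21U-RNA genes.

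Intergenic and linked microRNA genes were marked at shares whose intervals overlap widely. Of the intergenic genes, 22 of 133 were marked (16.5%, interval 10.7 to 24.0), with 20 in replicate 1 and 24 in replicate 2. Among linked genes, 27 of 128 were marked (21.1%, interval 14.4 to 29.2), with 31 in replicate 1 and 25 in replicate 2. Within the linked genes, the share was 21.1% of those inside a host on the same strand (16 of 76), 18.2% of those inside one on the opposite strand (6 of 33) and 26.3% of those next to a coding 5' end (5 of 19). The difference between intergenic and linked genes was thus 5 genes, and the counts in the replicates moved by 4 and by 6.

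The share depended on the distance allowed. Summits within 250 bp marked 21 microRNA genes (8.05%), against 8.63% of all genes, so at this distance there was no excess over the background. Within 1000 bp the share was 27.6% (72 genes), against 16.4%. When a summit was given only to the gene with the nearest 5' end, 24 microRNA genes (9.2%) and 8.21% of all genes were marked. Among the pooled candidates, which include background peaks, 116 microRNA genes had a summit within 500 bp (44.4%), against 27.0% of all genes. No candidate of any list lay that close to 126 of them. All these backgrounds hold the rarely marked 21U-RNA genes, and shares without those genes were taken only for the final list at 500 bp. How far they lower the backgrounds at the other settings was not tested.

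Other RNA genes were split in the same way to see where microRNA genes fall among them. Intergenic tRNA genes were marked most often, at 55.2% of 268, followed by intergenic snoRNA genes at 45.6% of 103 and snRNA genes at 21.2% of 52. The intergenic microRNA genes, at 16.5%, were next to the long intergenic RNAs at 14.8% of 135 and the other ncRNAs at 19.4% of 3281. Intergenic 21U-RNA genes were marked at 2.53%. The interval of the microRNA share excludes the values of tRNA, snoRNA and 21U-RNA genes and covers those of the other classes.

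**Figure D1:**
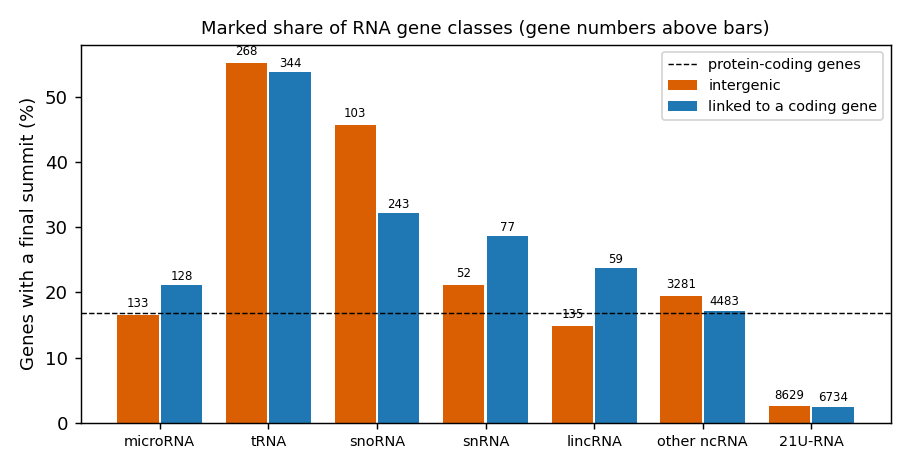
Share of genes with a final summit within 500 bp of the 5' end, in percent, for 7 classes of RNA gene, split into intergenic genes (orange) and genes linked to a coding gene by position (blue), with the number of genes above each bar. The dashed line is the share of protein-coding genes, 16.8%, and the microRNA bars, 16.5% and 21.1%, lie on either side of it, far below the tRNA bars.

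The marked microRNA genes were largely the same in both replicates. Of the 49, 43 were also marked by the strongest 6675 candidates of each replicate, 2 by those of replicate 1 only and 4 by those of replicate 2 only. All 49 had a candidate within 500 bp in both. Matched final peaks at microRNA genes had a median ratio of replicate 2 to replicate 1 of 1.18, with an SD of 0.45 on the log2 scale (50 peaks). Over all matched final peaks the ratio was 1.15, with an SD of 0.42 (6569 peaks). The 52 distinct final peaks near microRNA genes were spread over the whole list, with 30 (57.7%) among its stronger 3337 and 11 among the first 1000. Their median signal was 166, against 158 over all final peaks.

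**Figure D2:**
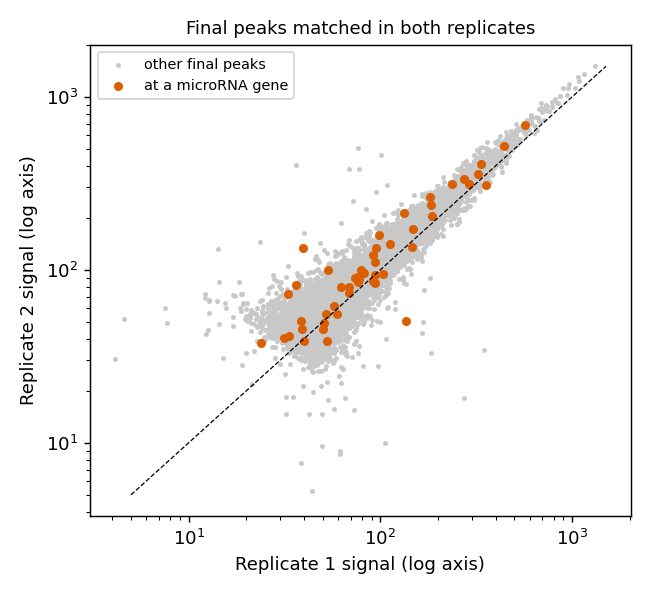
Signal of each final peak matched in both replicates, with replicate 1 on the x axis and replicate 2 on the y axis, both log axes in the authors' unit, and the line of equal signal dashed. Peaks at microRNA genes (orange, 50 matched peaks) lie along the same band as the other final peaks (grey), with median ratios of 1.18 and 1.15 over all final peaks.

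Strong peaks lay by intergenic microRNA genes with no coding 5' end within 500 bp of the summit. The highest was upstream of mir-53, with signals of 335 in replicate 1 and 406 in replicate 2 and a pooled signal of 726, which ranked 248 in the final list. Its summit lay 137 bp upstream of the hairpin, no other annotated 5' end was within 500 bp, and the nearest coding 5' end, of hrg-5, was 1600 bp away. The peak of mir-80 had signals of 291 and 315, was 612 in the pooled list and lay 265 bp upstream, 11496 bp from the nearest coding 5' end. At mir-52 the signals were 183 and 236, and the pooled signal was 419 at a point 115 bp upstream. Several short ncRNA genes are annotated there as well, the closest with its 5' end 27 bp from the summit. In all 3 cases replicate 2 was the higher, as it was for most final peaks, and the summits of the replicates lay within 10 bp of each other.

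Other intergenic members had weaker peaks. The overlapping hairpins mir-8186-1 and mir-8186-2, annotated on opposite strands, shared a peak of 343 (133 and 213 in the replicates), and mir-8209 had one of 326 (148 and 173) at 101 bp downstream. The peak at mir-228, a microRNA of glia, had signals of 95 and 134, with a pooled signal of 230 at 398 bp upstream. That of mir-8196a was 199 (103 and 94.1), 45 bp upstream. The peaks of mir-4936 (182; 93.3 and 83.4) and mir-269 (174; 79.0 and 100) lay close to the coding genes nduf-9 and sma-10, at 290 and 64 bp from their 5' ends. The peaks of mir-79 (167; 76.6 and 100) and mir-2213 (165; 76.2 and 90.4) followed; at mir-79 the strongest candidate lay upstream in replicate 1 and downstream in replicate 2. The peak of mir-45 was 144 (68.7 and 79.3). At the weak end, mir-47 had 32.8 in replicate 1 and 72.9 in replicate 2, and mir-230 had 36.3 and 81.5. These were the members with the widest gaps between replicates, and the first of them was outside the strongest 6675 candidates of replicate 1. The lowest marked member was mir-2218b, at 73.1 (31.2 and 40.3).

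Of the 22 marked intergenic genes, 19 had a summit with no coding 5' end within 500 bp, and they rested on 19 distinct peaks in all, since 5 members share a peak with another. For 15 of the 22 the nearest annotated 5' end of any kind was that of a microRNA. For 9 there was neither a coding 5' end nor the 5' end of an RNA gene of another class within 500 bp of the summit. Distances to 3' ends were not taken. Intergenic genes were defined as lying over 500 bp from any coding 5' end. The distance of these summits from coding 5' ends is thus largely set by that definition. Several of the peaks lay beside short ncRNA genes of unknown function.

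**Figure D3:**
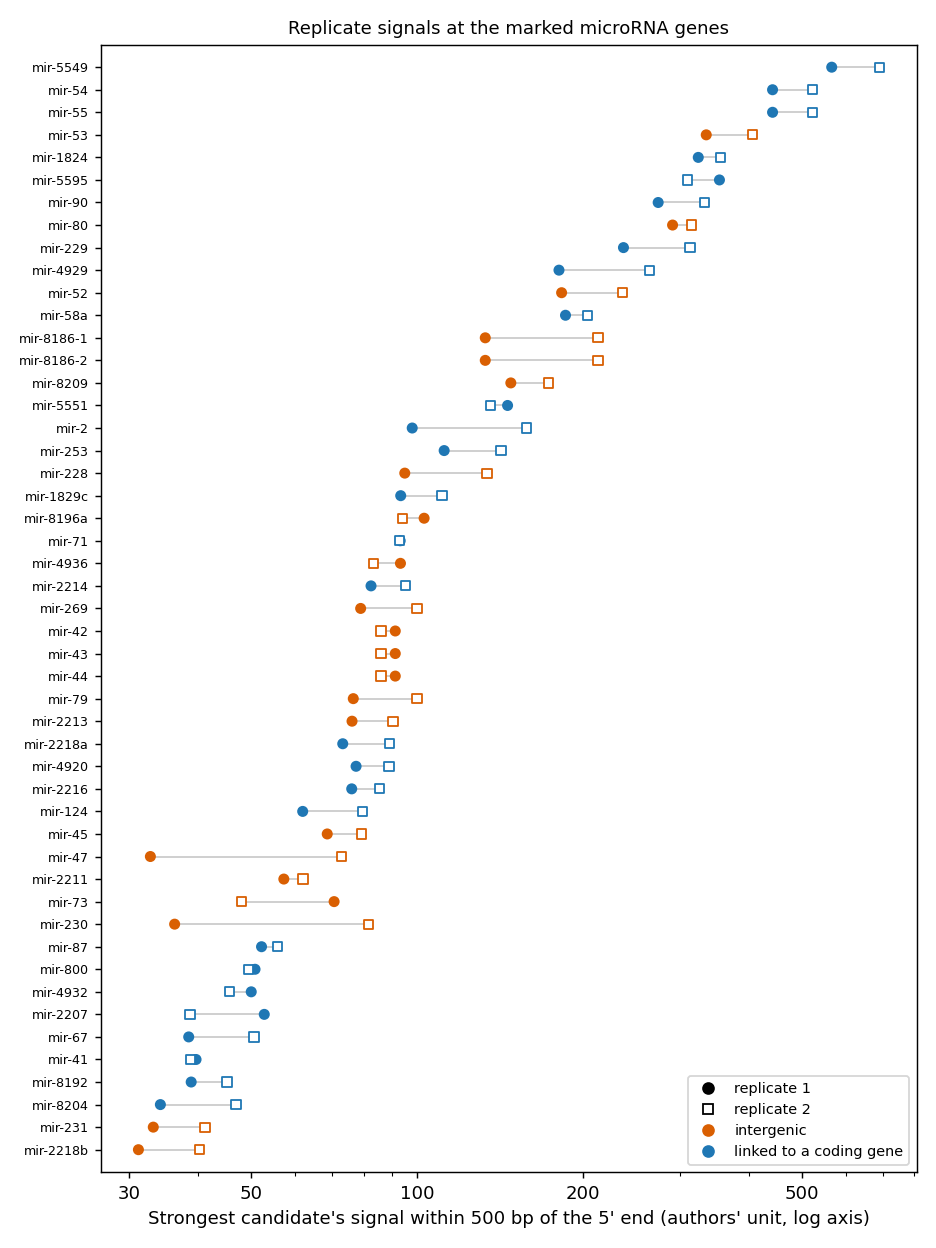
Signal of the strongest candidate within 500 bp of the 5' end in replicate 1 (filled circles) and replicate 2 (open squares) for each of the 49 marked microRNA genes, ordered by pooled signal, on a log axis in the authors' unit. Intergenic genes are orange and linked ones blue; mir-53 (335 and 406) leads the intergenic genes, and mir-47 (32.8 and 72.9) and mir-230 (36.3 and 81.5) show the widest gaps.

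Among the linked genes, the strongest peaks differ in whether a coding promoter is close. The highest of all lay at mir-5549, with signals of 566 and 691 in the replicates and 1250 in the pooled list, rank 52. Its summit was 2 bp from the microRNA 5' end, but the 5' ends of eef-1A.1, which encodes a translation elongation factor, and rfc-4, which encodes a subunit of replication factor C, were also within 500 bp. The peak therefore cannot be given to the microRNA gene alone. The same holds for mir-1824 (681; 324 and 356), whose summit lay 431 bp downstream of the hairpin and 96 bp from the 5' end of Y87G2A.18.

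Other strong peaks lay deep inside a host gene. The peak shared by mir-54 and mir-55 had signals of 442 and 522 and a pooled signal of 941, rank 118. Its summit lay inside F09A5.3, 3759 bp from the 5' end of that gene. Both hairpins lie in an intron of F09A5.3, on the opposite strand. A short ncRNA, F09A5.11, starts 89 bp from that summit. The peak at mir-5595 (pooled signal 664, with 354 and 310 in the replicates) had its summit 8835 bp from the nearest coding 5' end. It lay inside nurf-1, which encodes a subunit of a chromatin remodelling complex. The hairpin is in an intron of nurf-1, on the opposite strand. The signal of this peak was higher in replicate 1 than in replicate 2, whereas replicate 2 was the higher for most final peaks. The peak of mir-90 was 620 (274 and 333), 288 bp upstream of the hairpin and 2756 bp from the 5' end of its host K01F9.2. At mir-229 it was 555 (237 and 313), 330 bp upstream and 20177 bp from the 5' end of gcn-1, which encodes a regulator of translation. The peak of mir-4929 was 455 (181 and 264), and that of mir-58a 388 (186 and 204), 345 bp upstream and 10469 bp into Y67D8A.2.

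Hosted microRNA genes on the same strand were examined further, since their hairpins could be made from the host's transcript. Of the 16 marked ones, 12 had a summit over 1000 bp from any coding 5' end. All 12 of these summits lay inside the host, and 11 were upstream of the hairpin. They include mir-2 and mir-71, both in ppfr-1, which encodes a regulatory subunit of protein phosphatase 4. The peak of mir-71, a microRNA needed for survival of starved L1 larvae, had 93.2 in replicate 1 and 92.9 in replicate 2, with 190 in the pooled list at 358 bp upstream. The peak of mir-2 was 264 (98.0 and 158), 355 bp upstream. At mir-124, a microRNA of sensory neurons that lies in the ion channel gene trpa-1, the peak was 144 (62.0 and 79.7), 419 bp upstream and 6455 bp from the nearest coding 5' end. The exception downstream was mir-1829c, at 323 bp, where a tRNA gene starts 24 bp from the summit. The marked hairpins lay a median of 5128 bp from the 5' end of the host (quartiles 1408 and 10185). The 60 unmarked ones lay a median of 2522 bp from it (quartiles 1006 and 5413), so the ranges overlap. Over 1000 bp from the host's 5' end were 13 of the 16 marked hairpins and 46 of the 60 unmarked ones. A summit had to lie within 500 bp of its hairpin. The distance of the 12 summits from coding 5' ends thus follows in part from where the hairpins lie.

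Over all linked genes, 16 of 27 marked members had no coding 5' end within 500 bp of their strongest summit, and 11 had one. Together with the intergenic genes, 35 of 49 marked members had no coding 5' end within 500 bp of their strongest summit. That count is partly set by the definition of intergenic genes. For 24 of the 49 the nearest 5' end of any gene was their own.

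Summits lay upstream of the hairpin. The strongest summit was upstream in 42 of 49 marked genes (85.7%), at a median of -245 bp (quartiles -330 and -100), where negative values are upstream. In the replicates alone the median was -244 and -213 bp. Coding genes had their summits upstream in 90.1% of 3355 marked genes, at a median of -168 bp (quartiles -276 and -78). Summits over 250 bp from the 5' end made up 61.2% of those at microRNA genes (30 of 49) and 33.4% at coding genes. Intergenic and linked members had medians of -262 and -224 bp. Only 13 microRNA genes had their hairpin itself overlapped by a final peak.

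**Figure D4:**
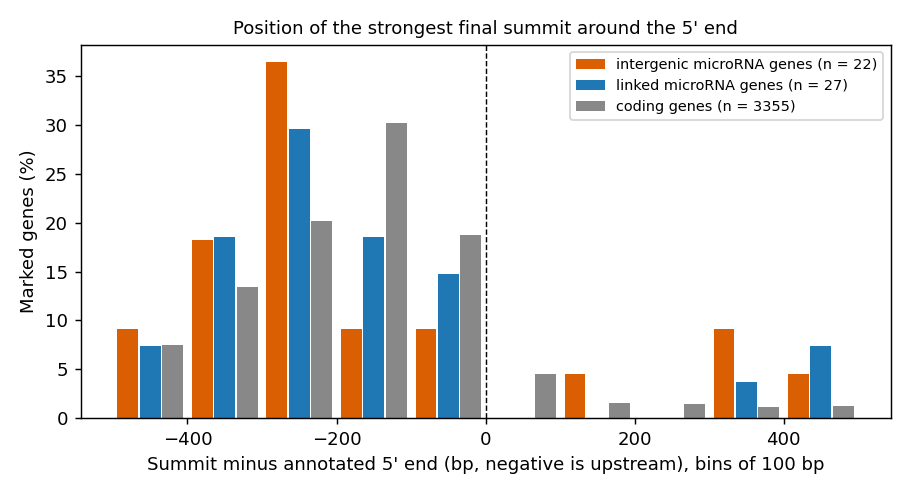
Position of the strongest final summit relative to the annotated 5' end, in bins of 100 bp, as a percentage of the marked genes of each kind: 22 intergenic microRNA genes (orange), 27 linked ones (blue) and 3355 coding genes (grey). The tallest bin is 200 to 300 bp upstream for both kinds of microRNA gene (8 genes each) and 100 to 200 bp upstream for coding genes (1013 genes).

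With gaps of up to 1000 bp on the same strand, 52 hairpins formed 18 clusters, of which 6 held a marked hairpin. In 4 of these 6 the summit lay before the leading hairpin. Counted by hairpin, 9 of 52 in clusters were marked (17.3%) and 40 of 209 that stood alone (19.1%), so the shares per hairpin were close. Counted by cluster, the share was 33.3% (6 of 18). A cluster has several 5' ends that a summit may mark, so its share is not a like measure to that of single hairpins. Before mir-42, mir-43 and mir-44 a summit of 173 (91.3 and 86.0 in the replicates) lay 259 bp upstream of mir-42 and so within 500 bp of all 3. In the cluster of mir-54, mir-55 and mir-56 the summit of 941 lay 266 bp upstream of mir-54, which put it 573 bp from mir-56 and outside the window. The clusters led by mir-229 and by mir-73 were marked at the leading hairpin alone, at 330 and 397 bp upstream; the second had signals of 70.7 and 48.0 and a pooled signal of 119. The long cluster of mir-35 to mir-41 differed: its summit of 81.6 lay 480 bp downstream of the 5' end of mir-41 and 53 bp from the 5' end of Y62F5A.9, on whose opposite strand the cluster lies. By the rule on distance, mir-56, mir-64, mir-65, mir-66 and mir-74 were thus unmarked although a summit lay before the leading hairpin of their cluster.

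**Figure D5:**
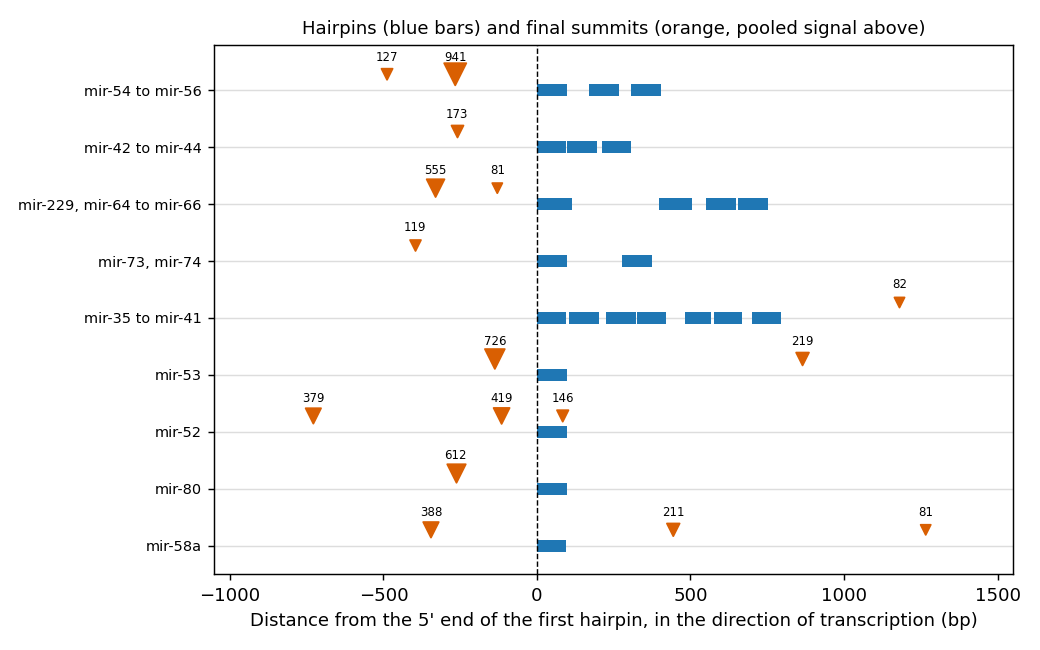
Hairpins (blue bars) and final summits (orange triangles, sized by pooled signal, with the signal printed above) around 5 clusters and 4 hairpins that stand alone, by distance in bp from the 5' end of the leading hairpin in the direction of transcription. In the clusters of mir-54, mir-42, mir-229 and mir-73 the summits lie upstream of the leading hairpin, with the strongest at 266, 259, 330 and 397 bp, while the cluster of mir-35 has one downstream of its last hairpin.

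Families defined by function or seed did not share a single pattern. Their counts are to be read against the 18.8% of all microRNA genes and 12.3% of all genes that were marked, and in lists this small a difference of 1 or 2 genes says little. In the mir-51 family 4 of 6 genes were marked, at 3 separate loci. The exceptions were mir-56, described above, and mir-51, whose best pooled candidate within 500 bp had a signal of 19.2; its nearest upstream final summit was 714 bp away. In the bantam-related family 2 of the 5 genes listed were marked, or 2 of 7 with mir-58c and mir-2209a, which share the seed. The signals of mir-58a and mir-80 were between 186 and 315 in the replicates. By contrast, mir-81 and mir-2209a had no candidate in any list, and mir-82 had a pooled candidate of 21. The neighbours mir-58b and mir-58c lay by the same weak candidate, with 8.05 in replicate 1 and 7.40 in replicate 2. Of the mir-35 family, needed in the embryo, 2 of 8 were marked, mir-42 and mir-41. The hairpins mir-35 and mir-36 had a pooled candidate of 8.97, and mir-37 to mir-40 had none. By seed, 260 genes had a mature sequence in RefSeq, and 109 of them had an arm whose seed another gene also carried. Families were formed with 1 arm per gene, the one whose seed most genes share. There were 34 of them, and a few of the 109 genes are in none. Of those 109, 23 were marked (21.1%), and of the 151 genes with a seed of their own, 26 (17.2%). Both shares are close to that of all microRNA genes.

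The heterochronic microRNAs, which time larval development, had no final peak. None of lin-4, let-7, mir-48, mir-84, mir-237 and mir-241 was marked (0 of 6), a count that differs little from the 18.8% of all microRNA genes in a list of this size. The closest to the final list was lin-4, which represses lin-14 after the start of larval feeding. Its candidate had 37.2 in replicate 1, inside the strongest 6675, but 20.4 in replicate 2, and 59.4 in the pooled list at rank 7622. For let-7, mir-48, mir-237 and mir-241 no candidate of any list lay within 500 bp, and mir-84 had one in replicate 2 alone, at 22.4. The annotated let-7 gene is 1732 bp long, and the nearest upstream final summit lay 1855 bp from its 5' end. The muscle microRNA mir-1 had a final summit 510 bp upstream, just outside the window, and mir-238 and mir-244 just missed the final list, with pooled signals of 70.3 and 68.6 against the lowest final signal of 71.7.

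Of microRNAs known from starvation, stress or lifespan, 2 of 8 were marked, mir-71 and mir-80. Of the others, mir-238 had 25.2 in replicate 1 and 50.2 in replicate 2, mir-239a 35.8 and 21, and mir-239b 15.2 and 36.6. The candidates of mir-235 (8.63 and 15.3) and mir-34 (14.2 and 12.2) were weaker, and mir-246 had none. Among neuronal microRNAs 1 of 4 was marked, mir-124, and mir-791 (12.3 and 20.5), mir-273 (9.91 in replicate 2, none in replicate 1) and lsy-6 (no candidate) were not. None of the 4 mirtrons listed, whose hairpins are released by splicing, had a final peak: mir-1018, mir-1019 and mir-1020 had no candidate in any list, and mir-62 had 5.20 and 34.3 in the replicates. By position mir-1018 counted among the intergenic genes. With 8, 4 and 4 genes, these lists are too small for their shares to be told apart from the 18.8% of all microRNA genes or the 12.3% of all genes.

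Genes with low mir numbers, which are in general the earliest cloned and include many abundant and conserved microRNAs, were marked more often than later ones. This split was made after values had been seen. Of 58 genes with a number under 100, 19 were marked (32.8%; 20 and 18 in replicates 1 and 2). Of 76 with a number from 100 to under 1000 it was 8 (10.5%; 9 and 10), and of 123 with a higher number 22 (17.9%; 21 and 21). Among intergenic genes alone the shares were 34.5% (10 of 29), 8.51% (4 of 47) and 14.0% (8 of 57). In each replicate the low numbers had the highest share, but the final list was built from these replicates. The share of all microRNA genes was 18.8%, and that of all genes 12.3%. Some low-numbered genes share a peak, such as mir-54 with mir-55, and mir-42 with mir-43 and mir-44.

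The share of marked microRNA genes differed between the 6 chromosomes, on small counts, and the differences were not tested. The highest share was on chromosome III, with 9 of 27 marked (33.3%), where 24.2% of coding genes were marked. Chromosome I was close to it, with 10 of 33 (30.3%; 8 and 11 in the replicates), against 22.9% of coding genes. On the X chromosome, which holds 74 microRNA genes, 8 were marked (10.8%; 11 and 8 in the replicates), against 16.4% of its coding genes. The lowest share was on chromosome V, with 2 of 28 (7.14%), where coding genes were also lowest, at 11.8%. On chromosome II the share was 24.5% (12 of 49), against 15.3% of coding genes, and on chromosome IV 16% (8 of 50), against 15%.

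The bases around the summits at microRNA genes were set beside those of all final peaks. In windows of 151 bases the median GC content was 47.0% at the 45 distinct strongest peaks of microRNA genes (quartiles 42.4 and 53.6) and 43.7% over 6675 final peaks (quartiles 39.1 and 49.0). For the 31 peaks with no coding 5' end within 500 bp it was 52.3%. GGGCGG was found on either strand in 11 of 45 windows (24.4%), against 7.78% of all final windows, TATAAA in 8 (17.8%), against 8.31%, and GAGAGA in 22 (48.9%), against 38.1%. The motifs were picked after looking at these windows, so the shares are descriptions of this set. The GC content was higher in the same windows, and its part in the share with GGGCGG was not tested.

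The proteins that make and use microRNAs were described from a list of 18 coding genes. Of these, 7 were marked in the final list and in each replicate (38.9%), against 16.8% of coding genes in the final list. The count depended on the distance allowed. Within 250 bp it was 3 (16.7%), within 1000 bp 11 (61.1%), and by the nearest 5' end only 4 (22.2%). Shares of coding genes were not taken at these settings. The list is small and was chosen with earlier results known, and its difference from coding genes was not tested. Among the 3 processing enzymes only pash-1, the partner of Drosha, was marked, with 238 in replicate 1 and 225 in replicate 2 and 464 in the pooled list, 85 bp upstream. The genes drsh-1 (Drosha) and dcr-1 (Dicer) were not. Of 10 effector genes 6 were marked. They were vig-1 (749; 323 and 422) and tsn-1 (229; 112 and 124), which encode proteins found with the Argonaute complex; ccf-1 (191; 91.4 and 95.5) and let-711 (104; 44.2 and 59.5), of the CCR4-NOT deadenylase; ain-2 (190; 93.2 and 95.6), a GW182-type cofactor; and the Argonaute alg-2 (137; 58.4 and 76.6). The Argonaute alg-1 had no final peak, nor had ain-1, nhl-2 and cgh-1. None of the 5 genes of microRNA turnover and let-7 control, lin-28, pup-2, xrn-1, xrn-2 and paxt-1, was marked. Of the unmarked genes, xrn-2, drsh-1 and pup-2 had pooled candidates of 57.2, 40.7 and 19.3. Among 11 known targets, lin-14 (391; 178 and 239), repressed by lin-4, and mef-2 (334; 116 and 214), repressed by mir-1, were marked (18.2%), close to the 16.8% of coding genes. The targets lin-41, hbl-1, lin-42, daf-12, let-60, cog-1, egl-1, unc-29 and unc-63 were not. The peaks of ccf-1, tsn-1, vig-1, alg-2 and lin-14 had another gene's 5' end within 500 bp.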

How the data were processed

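ChIP-seq for tagged SNU-23 was analysed in 2 biological replicates of 1 group, from peak lists on ce11. The authors deposited, per the file descriptions, 30000 candidates per replicate and for both pooled, called with a control alignment and including background peaks, and a final list thresholded by the irreproducible discovery rate. The deposited columns used were the signal per peak and the summit offset; the deposited −log10 q-value was not used to rank. Peak caller, aligner, read depth: not given in the sources used here. Lists on ce10 were not used. Signal has no common scale between lists, and peaks of a list were ranked by it.

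Genes came from Ensembl release 115 and mature sequences from RefSeq, both on WBcel235. Counting used Python 3.11.15, pandas 2.3.3, numpy 2.4.6 and scipy 1.17.1 and was tested on simulated summits. Genes count as marked with a summit within 500 bp of the 5' end; a summit may mark several genes, so genes are not independent, and exact 95% intervals cover counting error only. Values are given for the strongest intergenic and linked members, every family list member with a candidate and every marked pathway gene. Members and lists were chosen with earlier results of these data known. Counts were repeated with 1 replicate, with the stronger 3337 final peaks, all pooled candidates, windows of 250 and 1000 bp, the nearest 5' end only, hairpin overlap, RefSeq genes and other definitions of intergenic; summits without a coding 5' end and a background without 21U-RNA genes were added after seeing the data.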

Additional observations from a re-analysis of the deposited data

How the results depend on the processing

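Of 43 pairs of a result and an alternative, 24 stayed within 1.5 times the reported count or within the spread between replicates, and 19 moved. With 1 replicate left out, 49 to 51 microRNA genes were marked, 20 to 24 intergenic, 25 to 31 linked and 7 of the pathway, and the median position was -213 to -244 bp. The count followed the choice of peaks and distance. With all pooled candidates it was 116 (53 intergenic, 63 linked). Within 250 bp it was 21 (8 and 13), with a median position of -137 bp and 3 pathway genes. Within 1000 bp, 43 linked genes and 11 pathway genes were marked. Given only to the nearest 5' end, summits marked 24 (12 and 12) and 4 pathway genes, and by overlap with the hairpin 13 (6 and 7). Summits with no coding 5' end within 500 bp, an alternative chosen after seeing the data, left 17 linked genes when any summit of a gene was counted; for 1 of these the strongest summit, used in the results, does have one. No paired analysis was possible because there is 1 group. Depth is not given in the lists, so it is unknown how many weak sites, such as that of lin-4, deeper libraries would place in the final list.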
